A study of Marchantia polymorpha with 6 samples.

Results

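The male sex chromosome of the liverwort Marchantia polymorpha, the V chromosome, was represented by 146 of the 19472 gene IDs counted in thalli, the flat vegetative plant body. Members were all IDs that start with MpVg. In control thalli 28 of them were expressed, here at least 1 CPM (reads per 1000000 of the library total) in each of the 3 control libraries. A further 88 were silent, here a control mean under 0.1 CPM, and 30, called intermediate, met neither rule. Growth on arsenite, a trivalent form of arsenic, gave 0 called differences among the 35 V chromosome genes with enough reads to test. Over all 13544 tested genes the called share was also small, 4.18%.

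Poly(A) RNA was sequenced from plants of the genotype labelled Cam1, which all groups share, a male wild-type accession. The 3 control samples grew on half-strength Gamborg medium with 0 µM arsenite and the 3 arsenite samples on that medium with 2.5 µM sodium arsenite, all at 21 °C. The sources used here give neither plant age nor duration of growth. They do not say whether samples were separate plants or cultures, so p-values measure only the spread between these samples. Library totals ran from 26579324 to 47532310 reads, and 62663 to 113154 reads per library fell on V chromosome IDs.

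Marchantia spends its vegetative life as a haploid plant, and each thallus carries a single sex chromosome, U in females and V in males. The V chromosome does not recombine with the U chromosome along most of its length. It holds genes needed for motile sperm, which are used in the male organs, and genes with a related copy on the U chromosome, many of which work throughout the plant. Sex is set by a gene of the U chromosome, MpBPCU, which directs female development, so a plant without it develops as a male.

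The table of gene names used here comes from a female plant (assembly MpTak2_v7.1) and matched 0 of the 146 V chromosome IDs. Members are therefore given by ID, without names, roles, positions or sequences. CPM is not corrected for gene length, so an order of members by CPM is an order by reads and not by transcripts per length. Read counts of genes with a near-identical copy, on the U chromosome or among repeated V chromosome genes, are uncertain, since no source used here says how reads that map to more than one place were counted.

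The libraries carried the RNA of male plants. Between 46 and 158 reads per library fell on 47 IDs of the U chromosome, and V chromosome reads exceeded them 673-fold to 1360-fold. Of the U chromosome reads in all libraries, 88.3% fell on 1 ID, MpUg00330, with 133, 69 and 101 reads in control replicates 1, 2 and 3 and 78, 58 and 37 reads in arsenite replicates 1, 2 and 3. MpUg00330 had reads in every library, and their origin was not tested. MpBPCU (MpUg00370) had 0 reads in each library. So had the 6 other U chromosome IDs with a symbol, among them MpMYCX (MpUg00430), MpROS1x (MpUg00470) and MpLOVU (MpUg00050).

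Reads of the V chromosome came almost wholly from its expressed genes. The 28 expressed genes held 99.6% of control V chromosome reads, the 30 intermediate genes 0.378% and the 88 silent genes 0.0272%. The lowest expressed gene, MpVg00085, had a control mean of 2.25 CPM, and the highest intermediate gene, MpVg01080, 1.46 CPM. At the lower limit the nearest values were 0.101 CPM for an intermediate gene and 0.0881 CPM for a silent one. Control means of at least 100 CPM were found for 7 genes and of at least 10 CPM for 25, while 5 lay from 1 to 10 CPM and 28 from 0.1 to 1 CPM. The intermediate genes made up 20.5% of V chromosome IDs, against 10.7% to 15.4% on the autosomes. This higher share lay with the V chromosome IDs that end in a letter, of which 35.8% were intermediate. Among IDs without a letter it was 11.8% on the V chromosome and 13.5% on the autosomes.

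**Figure D1:**
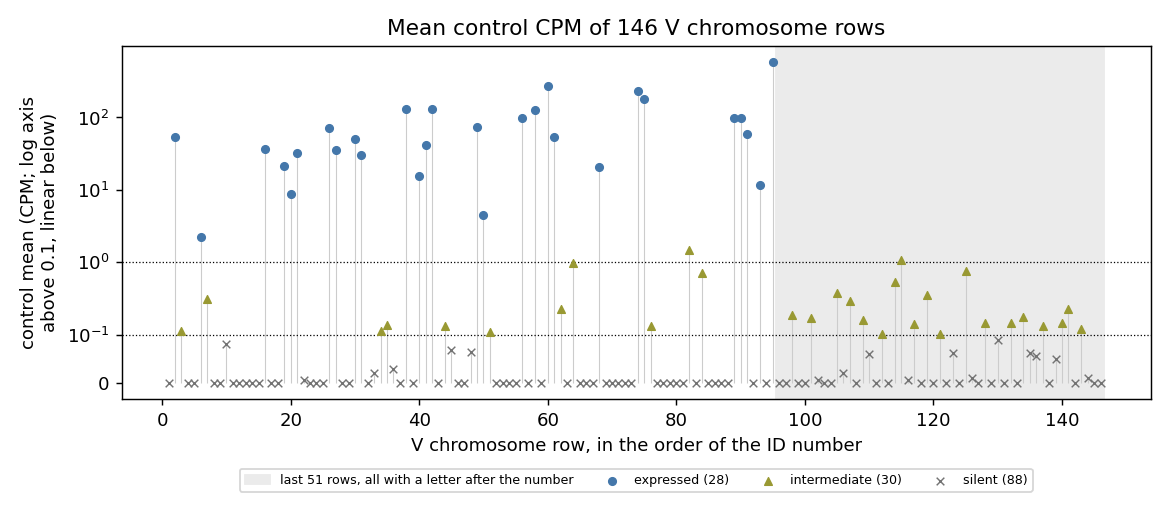
Mean CPM over 3 control libraries (vertical axis, logarithmic above 0.1 CPM and linear below) for 146 V chromosome rows in the order of their ID numbers, with dotted lines at 1 and 0.1 CPM. The 28 expressed genes are spread over the numbered rows, and none lies among the last 51 rows, whose IDs end in a letter.

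Silence was in most cases a complete lack of reads. No read fell in any of the 6 libraries on 67 of the 146 genes (45.9%), and 71 had 0 reads in the 3 controls, which allows a mean of up to 0.0284 CPM (3 reads over 105463601 control reads, counting error only). The 21 silent genes with a read somewhere had control means of at most 0.0881 CPM. A gene missing from Cam1 and a gene present but not transcribed cannot be told apart in these counts. Nor can either be told from a transcribed gene whose reads also map to a near-identical copy and were not counted.

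By the same limits, a smaller share of IDs was expressed on the V chromosome than on any autosome. On the 8 autosomes 56.1% to 72.7% of IDs were expressed and 16.6% to 28.5% silent, against 19.2% expressed and 60.3% silent on the V chromosome. IDs with 0 reads in all 6 libraries made up 7.37% to 15.7% of each autosome and 45.9% of the V chromosome. Unplaced IDs, 174 in all, came near the V chromosome, with 19.5% expressed, 54.6% silent and 34.5% at 0 reads in all 6 libraries. These are counts over whole sets of IDs, with no test.

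No V chromosome ID that ends in a letter was expressed. There were 53 of them under 8 numbers, 24 under MpVg01265 alone, and 51 form the end of the V chromosome list. Of these IDs 19 were intermediate and 34 silent, of which 22 had 0 reads. Together they drew 130 to 229 reads per library, between 0.196% and 0.234% of V chromosome reads. Of the 93 IDs without a letter, 30.1% were expressed, 58.1% were silent and 48.4% had 0 reads, against 64.9%, 21.6% and 9.42% of the 18390 autosomal IDs without a letter. Lettered IDs of the autosomes were silent in 94.8% of 715 cases, and 4.76% of those were intermediate, against 64.2% silent and 35.8% intermediate on the V chromosome. How many of these are copies of one another was not tested.

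**Figure D2:**
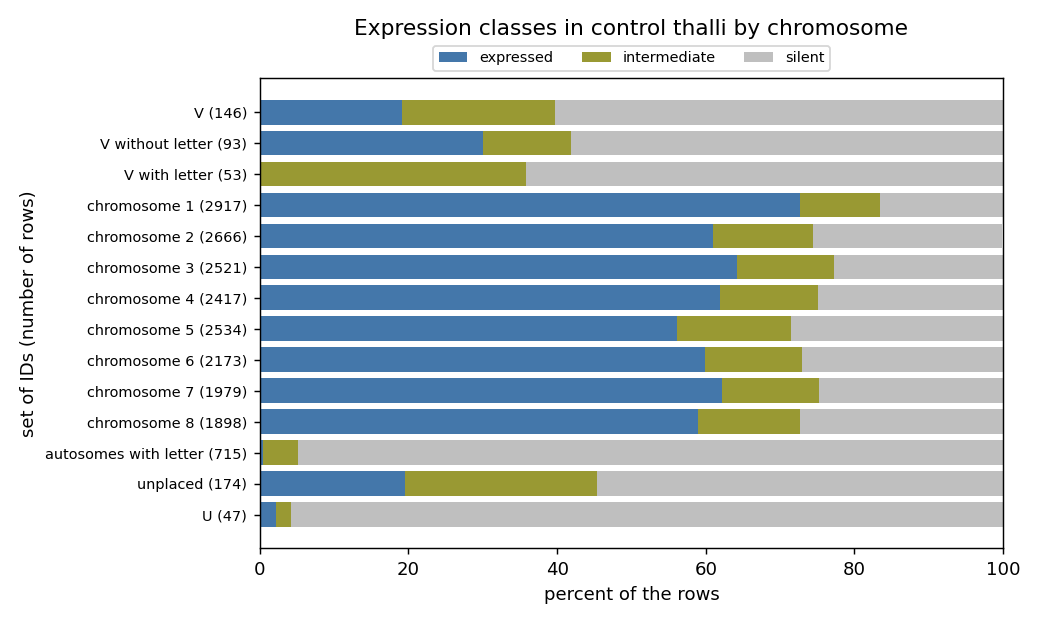
Percent of IDs that were expressed, intermediate or silent in 3 control libraries (horizontal axis), for the V chromosome, each autosome, unplaced IDs and the U chromosome, with the number of rows in parentheses. The expressed share is 19.2% on the V chromosome and 30.1% of its IDs without a letter, below the 56.1% to 72.7% of the autosomes.

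Expressed genes lay along the whole numbered part of the chromosome. Among the IDs without a letter, 10 of 31 were expressed from MpVg00010 to MpVg00360, 10 of 31 from MpVg00380 to MpVg00830 and 8 of 31 from MpVg00835 to MpVg01240. They formed 17 runs of neighbouring rows, of which 9 held 1 gene and the longest 3 genes, as in MpVg00230, MpVg00240 and MpVg00250 or MpVg01150, MpVg01160 and MpVg01180. That the numbers follow the order along the V chromosome could not be checked with the tables used here.

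A few genes drew most of the reads. The first, MpVg01240, held 22.6% of control V chromosome reads, the first 3 held 42.2% and the first 10 held 75.5%. MpVg01240 made up 15.3%, 35.3% and 14.2% in control replicates 1, 2 and 3, and without control replicate 2 these shares were 14.7%, 37.4% and 73.4%. MpVg01240 had 364, 1050 and 339 CPM in control replicates 1, 2 and 3 and 451, 598 and 507 CPM in arsenite replicates 1, 2 and 3. Control replicate 2 stood above all other libraries, at 2.98 times the mean of the other controls, while the 3 arsenite libraries lay between it and them. Its control coefficient of variation (CV, the SD as a percentage of the mean) of 69.0% was the highest of the 28 expressed genes.

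MpVg00760 followed with 299, 228 and 286 CPM in controls and 304, 342 and 325 CPM with arsenite, in the order of the replicates. MpVg00970 had 239, 208 and 256 CPM in controls and 212, 246 and 245 CPM with arsenite. Its neighbour in the list, MpVg00980, had 206, 158 and 178 CPM and 189, 158 and 154 CPM. In controls these genes kept their order in each library, and control replicate 2 was the lowest of the controls for all of MpVg00760, MpVg00970 and MpVg00980, the library in which MpVg01240 was high.

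The next genes differed little between libraries. MpVg00440 ran from 117 to 142 CPM over the 6 libraries, MpVg00510 from 114 to 132 CPM and MpVg00730 from 104 to 128 CPM. Their control means of 129, 129 and 126 CPM did not differ beyond the spread of MpVg00440 (SD 12.6 CPM, n = 3). For MpVg00510 (log2 fold change -0.10 ± 0.09, SE, adjusted p = 0.577 with edgeR) and MpVg00730 all arsenite libraries lay below all controls. The same held for 16.0% of all tested genes. MpVg00710, MpVg01160 and MpVg01150 likewise had control means of 99.7, 97.5 and 97.3 CPM, with SDs of 7.57, 2.59 and 4.51 CPM. MpVg00600, at 72.4, 75.9 and 76.3 CPM in controls and 79.3, 76.0 and 73.6 CPM with arsenite, overlapped fully between groups. MpVg00030 had 49.3, 51.7 and 59.8 CPM in controls and 55.0, 54.9 and 44.6 CPM with arsenite, with overlapping groups.

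In MpVg00770 and MpVg00300 libraries of a group lay close together, and all arsenite libraries lay below all controls. MpVg00770 had the lowest control CV of the expressed genes, 1.20%, with 53.0, 53.2 and 54.2 CPM in controls and 49.7, 48.3 and 49.1 CPM with arsenite (a log2 fold change of -0.10 ± 0.09, adjusted p = 0.557 with edgeR). MpVg00300 had 69.9, 74.4 and 72.8 CPM in controls and 64.5, 66.8 and 61.4 CPM with arsenite (-0.15 ± 0.09, adjusted p = 0.398 with edgeR). Neither difference passed the test.

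Over the 28 expressed genes the median control CV was 7.47%, and 17 had a CV under 10%. The median over expressed autosomal genes was 11.7%, and by autosome it ran from 10.7% to 12.6%. Genes with few reads vary more, and read numbers were not matched between these sets.

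**Figure D3:**
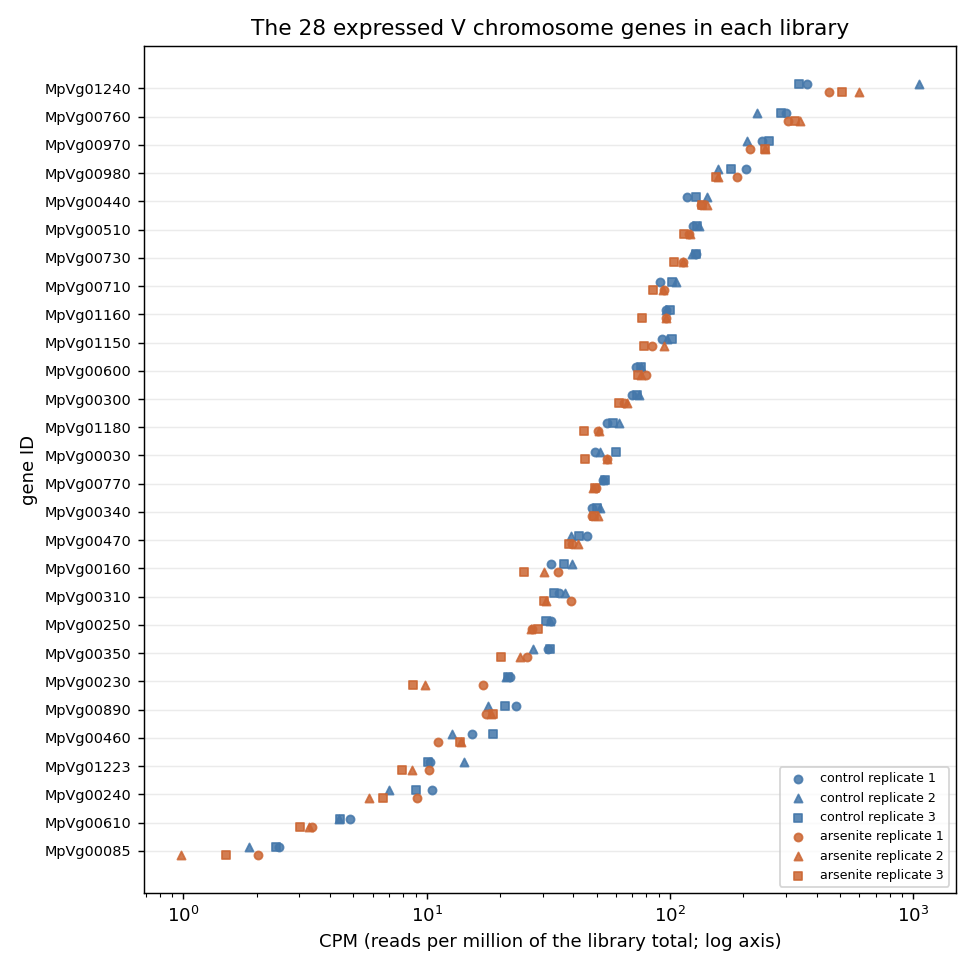
CPM (horizontal logarithmic axis) of the 28 expressed V chromosome genes in 3 control (blue) and 3 arsenite (orange) libraries, 1 point per library. MpVg01240 in control replicate 2 (1050 CPM) and MpVg00230 in arsenite replicates 2 and 3 (9.85 and 8.77 CPM) stand apart from the rest of their genes' points.

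Arsenite was compared with control to see whether V chromosome transcripts differ between these growth conditions. As a whole, V chromosome IDs held 0.238%, 0.297% and 0.239% of reads in control replicates 1, 2 and 3 and 0.239%, 0.257% and 0.236% in arsenite replicates 1, 2 and 3. The groups overlapped. The difference of the means, -0.0141 percentage points, had p = 0.6 (two-sided exact permutation test, n = 3 each, where 0.1 is the smallest p), and without control replicate 2 it was 0.00547 points in the other direction.

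In control replicate 2 the excess lay on 1 gene. Without MpVg01240 the other 145 rows summed to 2016, 1924 and 2054 CPM in controls and 1941, 1976 and 1851 CPM with arsenite (exact permutation p = 0.3). The control CV of the V chromosome sum was 13.1% with MpVg01240 and 3.33% without it. Of V chromosome reads, 58.5% ± 7.29 in controls and 56.0% ± 3.18 with arsenite lay outside the 3 leading genes (SD, n = 3 each; exact permutation p = 0.8). This difference of -2.49 percentage points was -6.68 without control replicate 2, where the groups no longer overlapped, -4.32 without arsenite replicate 1, and -1.47, -0.659 and -0.119 without arsenite replicate 2 and control replicates 1 and 3. Without arsenite replicate 3 it was -1.67.

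**Figure D4:**
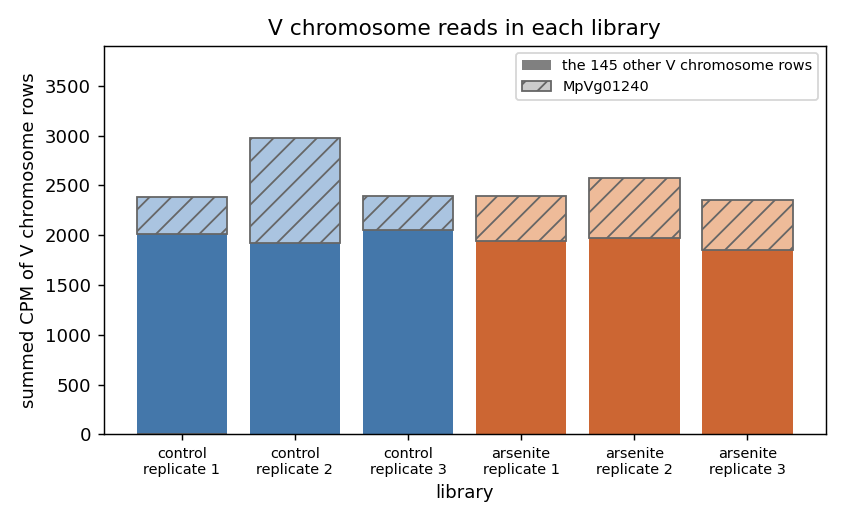
Summed CPM of V chromosome rows (vertical axis, from 0) in each of the 6 libraries, split into MpVg01240 (hatched) and the 145 other rows. The other rows stay between 1851 and 2054 CPM, while the MpVg01240 part is largest in control replicate 2.

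The same genes made up the expressed set in both groups. At least 1 CPM in each arsenite library was reached by 27 genes, all of them among the 28 expressed in controls. The remaining one, MpVg00085, had 2.48, 1.87 and 2.40 CPM in controls and 2.03, 0.982 and 1.50 CPM with arsenite, with overlapping groups. Of genes with 0 control reads 4 had reads with arsenite, at most 2 over the 3 libraries, and 6 with control reads had 0 with arsenite. Among these 6, MpVg00105 had the most reads in controls, 8 in all. Silent genes with the highest arsenite means were MpVg01285c, MpVg01265e and MpVg00525, at 0.111, 0.0899 and 0.0528 CPM, so none reached the limit of 1 CPM.

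Of the 35 V chromosome genes tested, 28 expressed and 7 intermediate, 0 were higher and 0 lower at an adjusted p under 0.05 (edgeR's quasi-likelihood test, Benjamini-Hochberg adjustment over all 13544 tested genes, the source of each adjusted p unless another tool is named). Over all tested genes 4.18% were called, 2.04% higher and 2.14% lower. At an unadjusted p under 0.05 there were 5, 3 lower and 2 higher, or 14.3% against 21.1% of all tested genes. The 2 higher were MpVg00760 and MpVg01285a, and MpVg01285a passed the low-count filter only through its arsenite reads. DESeq2 called 1 (11.8% of all genes it tested) and limma-voom 0 (3.92%). The smallest adjusted p was 0.114.

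The expressed genes were measured closely enough to bound most differences. For 25 of the 28 the 95% interval of the log2 fold change lay within -1 and 1, that is, within a 2-fold change, a share of 89.3% against 78.1% of all expressed genes. The exceptions were MpVg00230, MpVg00085 and MpVg01240. In 26 of 28 the log2 fold change was under 0.5 in size. The median size was 0.157 for expressed V chromosome genes and 0.196 for all expressed genes. Expressed V chromosome genes also had more reads, with a median control mean of 53.5 CPM against 32.3 CPM. Their median SE was smaller, 0.116 against 0.157. Read numbers were not matched for these comparisons.

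MpVg00230 had the smallest p. It had 22.0, 21.1 and 21.6 CPM in controls and 17.0, 9.85 and 8.77 CPM with arsenite, so the groups did not overlap and arsenite replicate 1 lay nearest to the controls. The log2 fold change of MpVg00230 came to -0.83 ± 0.25 (SE; 95% interval -1.42 to -0.25), at an adjusted p of 0.114 with edgeR. DESeq2 called it lower (log2 fold change -0.83, adjusted p = 0.026), and so did edgeR without arsenite replicate 1 (-1.16, adjusted p = 0.0206), where 2.47% of all genes were called. Over 13 alternatives its adjusted p ran from 0.0206 to 0.294 and its log2 fold change from -1.16 to -0.66.

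Its neighbours in the list did not share this size of difference. MpVg00240 had 10.5, 7.01 and 9.03 CPM in controls and 9.12, 5.79 and 6.62 CPM with arsenite, with overlapping groups and a log2 fold change of -0.27 ± 0.23 (adjusted p = 0.544). MpVg00250 had 32.4, 32.0 and 31.0 CPM in controls and 27.1, 26.8 and 28.6 CPM with arsenite, where the groups did not overlap (-0.18 ± 0.10, adjusted p = 0.336). The difference between neighbours was not tested.

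MpVg00350 had 31.6, 27.3 and 32.2 CPM in controls and 25.9, 24.2 and 20.2 CPM with arsenite, which put the log2 fold change at -0.35 ± 0.13 (SE; adjusted p = 0.177). All arsenite libraries lay below all controls. MpVg00610, with fewer reads, had 4.86, 4.38 and 4.42 CPM in controls and 3.39, 3.28 and 3.01 CPM with arsenite (-0.47 ± 0.18, adjusted p = 0.199). Groups did not overlap here either, and over 13 alternatives its log2 fold change kept between -0.50 and -0.42.

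MpVg00760 was the expressed gene with the largest positive value, 0.28 ± 0.12 (SE, adjusted p = 0.233). Its lowest arsenite library, at 304 CPM, lay just above its highest control, at 299 CPM. MpVg01180 had 55.2, 61.4 and 58.5 CPM in controls and 50.5, 51.1 and 44.3 CPM with arsenite (-0.24 ± 0.11, adjusted p = 0.255). MpVg00730 (-0.17 ± 0.08, adjusted p = 0.285) also had all arsenite libraries below the controls. For MpVg01223 (-0.35 ± 0.21, adjusted p = 0.376) and MpVg00085 (-0.55 ± 0.32, adjusted p = 0.366) the groups overlapped. The first became -0.14 without control replicate 2, and the second -0.31 without arsenite replicate 2.

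For MpVg01240, the gene with most reads, the sign of the log2 fold change depended on 1 library and on the model. The value was -0.16 ± 0.44 (SE, 95% interval -1.21 to 0.89, adjusted p = 0.867). Without control replicate 2 it was 0.61 ± 0.15 (adjusted p = 0.121), since all 3 arsenite libraries lay above control replicates 1 and 3. With all libraries kept, it was 0.031 with limma-voom and 0.06 in edgeR with the replicate number as a block. Over the alternatives it ran from -0.45 to 0.61.

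Intermediate genes had few reads and wide intervals. MpVg01285a had 2, 7 and 3 reads in controls and 12, 14 and 9 reads with arsenite, or 0.0421, 0.262 and 0.096 CPM and 0.38, 0.474 and 0.339 CPM. It passed the low-count filter only through the arsenite libraries, where it is high, so its log2 fold change of 1.71 ± 0.65 (adjusted p = 0.192) and the lack of overlap are given as a description. The value was 1.19 without control replicate 1 and 2.59 without control replicate 2. MpVg01080 had 2.48, 1.12 and 0.768 CPM in controls and 4.50, 0.846 and 0.79 CPM with arsenite. Replicate 1 was the highest in each group, and the log2 fold change of 0.51 ± 0.76 (adjusted p = 0.744) became -0.80 without arsenite replicate 1. MpVg01245j, at 0.373 ± 0.216 and 0.229 ± 0.226 CPM (SD, n = 3 each), had -0.66 ± 0.79 (adjusted p = 0.677, edgeR). That value was -1.8 and -1.04 without arsenite replicate 3 and control replicate 1, and -0.13, -0.25 and -0.3 without control replicate 2 and arsenite replicates 1 and 2. MpVg01265j, chosen after its values were seen, had 1.07, 0.15 and 2.02 CPM in controls and 0.0633, 0.102 and 0.301 CPM with arsenite. It did not pass the low-count filter, and without that filter its log2 fold change was -2.78 (adjusted p = 0.156).

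**Figure D5:**
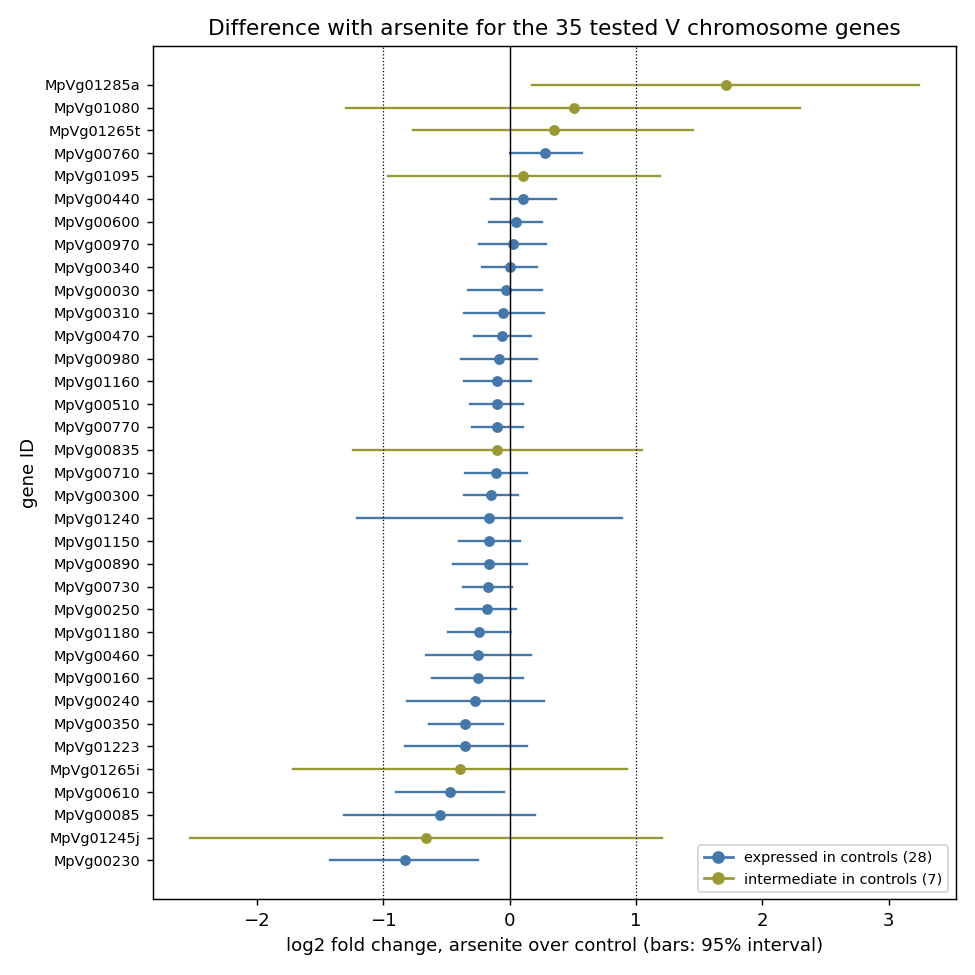
Log2 fold change, arsenite over control (horizontal axis), with its 95% interval for the 35 tested V chromosome genes, ordered by value, and dotted lines at a 2-fold change either way. Expressed genes (blue) cluster near 0, mostly on the negative side, and the intermediate genes (olive) have wide intervals.

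Small negative values were more frequent than positive ones. The log2 fold change was below 0 in 27 of 35 tested genes and above 0 in 8, that is, below 0 in 77.1% against 50.5% of all tested genes. The median was -0.11 beside -0.004 for all tested genes. With library totals as the only scaling the medians were -0.13 and -0.031, and with DESeq2's size factors -0.10 and 0.003. Over the 28 expressed genes the median of log2 CPM relative to the control mean was -0.10, -0.14 and -0.18 in arsenite replicates 1, 2 and 3 on TMM-scaled library sizes, and -0.04, 0.03 and -0.00 in controls. Expressed autosomal genes had -0.02, -0.02 and -0.03 in the arsenite libraries. These medians describe the set and carry no test.

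Groups did not overlap for 11 of the 35 (31.4%), against 28.1% of all tested genes. In 9 of them arsenite was below control (16.0% of all tested genes) and in 2 above (12.1%). Of the 2 above control, MpVg00760 and MpVg01285a, the second passed the filter only through its arsenite reads. On TMM-scaled library sizes the counts were 8 (14.4% of all tested genes) and 2 (13.8%).

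Regulators of sex and the germ line on other chromosomes gave a background for the V chromosome genes. Of 16 symbols listed, 8 had an ID and 7 could be tested. Of these 7, 0 were higher or lower with edgeR, where 4.18% of all tested genes were called. MpRKD (Mp3g04030), an RWP-RK transcription factor known for its part in egg and sperm formation, had 140, 161 and 155 CPM in controls, and 129, 128 and 108 CPM in arsenite libraries (log2 fold change -0.30 ± 0.11, adjusted p = 0.188). MpFKF (Mp3g14360), a light receptor that with MpGI promotes the change to sexual growth under long days, had 103, 93.9 and 99.7 CPM in controls and 81.4, 73.4 and 81.8 CPM with arsenite (-0.30 ± 0.09, adjusted p = 0.128). In both genes, and in the listed MpDUO1 and MpMID described below, all arsenite libraries lay below all controls. The same held for 16.0% of all tested genes. MpGI (Mp1g13750) had -0.04 ± 0.11 (adjusted p = 0.885) and MpSPL2 (Mp1g10030) -0.10 ± 0.22 (adjusted p = 0.831). MpBELL5 (Mp5g11060) went the other way, with 0.64 ± 0.33 (adjusted p = 0.311). It had 1.12, 0.599 and 1.25 CPM in controls and 1.55, 1.69 and 1.32 CPM with arsenite. All its arsenite libraries lay above all controls, as in 12.1% of all tested genes.

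Of 6 antheridium and sperm markers with an ID, 2 were at or near 0 and 4 had reads in every library. Of those 4, 0 were called with edgeR, beside 4.18% of all tested genes. MpPRM (Mp3g14390), the protamine-like protein that packs sperm chromatin, had at most 0.021 CPM, and MpLC7 (Mp6g01560), a dynein light chain of the sperm flagellum, at most 0.0749 CPM. MpDUO1 (Mp1g13010), the transcription factor of the male germ line, had 3.30, 1.65 and 2.46 CPM in controls and 1.20, 1.08 and 1.62 CPM with arsenite. MpMID (Mp1g11830), another RWP-RK factor, had 20.2, 17.6 and 14.4 CPM and 14.3, 10.3 and 10.2 CPM. Their log2 fold changes were -0.90 ± 0.33 (adjusted p = 0.178) and -0.56 ± 0.20 (adjusted p = 0.169). MpTUA5 (Mp4g08430), an alpha-tubulin, had 0.337, 0.337 and 1.09 CPM in controls and 0.76, 0.575 and 1.13 CPM with arsenite, with overlapping groups (log2 fold change 0.52 ± 0.55, adjusted p = 0.629). MpCEN1 (Mp1g00710), a centrin with means of 68.8 and 69.9 CPM, held most of this marker list's sum, which ran from 82.9 to 101 CPM in controls and from 82.1 to 85.7 CPM with arsenite over 6 of 9 markers with an ID. Of 4 egg and archegonium markers 2 had an ID, MpRKD and MpBELL5, and they summed to 141 to 162 CPM in controls and 109 to 130 CPM with arsenite. MpRKD, with means of 152 and 121 CPM, held nearly all of this sum. The plants were male and MpRKD also acts in sperm formation, so the sum is no measure of egg or archegonium cells. MpBELL5 had a higher mean with arsenite, 1.52 CPM against 0.988 CPM in controls. The part of antheridium and sperm cells in the small negative values of V chromosome genes was not tested. Fewer cells of a type and less RNA per cell cannot be told apart in bulk samples.

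Markers of the thallus were present. MpPHOT (Mp5g03810), the blue-light receptor phototropin, had control and arsenite means of 251 and 211 CPM, MpNOP1 (Mp8g11800), needed for air chambers, 101 and 122 CPM, and MpGCAM1 (Mp6g04830), needed for gemma cups, 4.26 and 4.81 CPM. MpRBCS (Mp4g09890) had means of 59.5 and 80.9 CPM. The mean with arsenite was thus lower for MpPHOT and higher for the other thallus markers. Over the 4 of 8 thallus markers with an ID the sum ran from 373 to 493 CPM in controls and from 385 to 462 CPM with arsenite. Among these 4, 0 were called with edgeR, beside 4.18% of all tested genes.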

How the data were processed

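Each deposited file holds raw read counts of 1 sample, made by the authors with htseq-count on Galaxy, per the file names. Aligner, versions, build, annotation, strand setting and treatment of multiply mapped reads: not given in the sources used here. No coordinates are printed. RNA was extracted with a Qiagen plant kit, per the labels' protocols.

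CPM was computed from the counts and library totals. Differences were tested on all genes with edgeR 4.0.16 (quasi-likelihood, TMM, default low-count filter by group, Benjamini-Hochberg threshold 0.05) in R 4.3.3, with limma 3.58.1 and DESeq2 1.42.0 as alternatives. SEs were derived from F statistics. Other alternatives changed scaling, filter, block, thresholds or left out 1 library. Within a group, libraries differed by a chi-square of at least 39.4 per degree of freedom, so none is a repeat deposit. Tested on simulated counts of 13544 genes (arsenite against control, 200 changed), edgeR called 62.1% of 95 genes tested with a 2-fold and 97% of 101 with a 4-fold change, with 5 false among 162 calls. Each simulated gene took the spread typical of genes with like read numbers. Gene-specific spread, such as that of MpVg01240, was not simulated, so these shares need not hold for such genes.

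IDs were matched to symbols by the number of the locus tag (17671 of 18391 tags, 96.1%). Marker lists hold only genes with a symbol. The genes described are the 15 with most control reads, the 10 with the smallest p, the 5 with the largest change, the 3 silent genes with the highest arsenite mean, and their neighbours. Members, lists and rules were chosen with earlier results of these data known.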

Additional observations from a re-analysis of the deposited data

How the results depend on the processing

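The number of called V chromosome genes was 0 with edgeR and became 1 with DESeq2, beside 4.18% and 11.8% of all genes tested. It ran from 0 to 1 when 1 library was left out. The gene was MpVg00230 in both cases, and it came up without arsenite replicate 1, where 2.47% of all genes were called. The difference in the share of reads on the V chromosome, arsenite minus control, ran from -0.0242 to 0.00547 percentage points when 1 library was left out and was positive only without control replicate 2. Without MpVg01240, an alternative chosen after seeing the data, it was -0.00755 points. The sign of the log2 fold change, with no call before or after, reversed for 6 of the 24 tested named genes. MpVg01240 had 0.031 with limma-voom, 0.06 with the replicate block and 0.61 without control replicate 2, and MpVg01080 -0.8 without arsenite replicate 1. MpVg00970 had -0.00057 with library totals only, and -0.00048, -0.0062 and -0.032 without arsenite replicates 2 and 3 and control replicate 2. MpVg00030 had 0.06 and 0.044 without arsenite and control replicate 3, MpVg00980 0.025 without control replicate 1, and MpVg01160 0.0095 without arsenite replicate 3. With 1 library left out, these genes ran from -0.45 to 0.61, from -0.8 to 1.14, from -0.032 to 0.12, from -0.09 to 0.06, from -0.16 to 0.025 and from -0.14 to 0.0095, in the order named. The cause was not tested. Of 310 values of named genes under alternatives, 296 kept direction and side of the threshold. The expressed count of 28 ran from 27 to 32 and the silent count of 88 from 71 to 106 over their thresholds and left-out libraries.

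The replicate numbers showed no clear pairing of the samples. Deviations of same-numbered libraries from their group means correlated at 0.00836, -0.111 and 0.187 over 13544 genes. Not every library correlated best with its own number. With 3 libraries per group, such correlations cannot settle whether the numbers mark a shared batch. With the replicate block, 0 V chromosome genes were called, and 364 of all genes in place of 566. The low-count filter left 111 genes untested, 67 of them with 0 reads in all libraries. Without it 79 were tested and 0 called, beside 600 calls among all 16948 genes then tested.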
